A study of Mus musculus with 4 samples.

Results

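Long noncoding RNA promoters were examined in hematopoietic stem cells (HSCs) as regions of open chromatin at the starts of lincRNA genes, which lie between protein-coding genes, and of antisense genes, which run opposite to another gene. A region was a peak of the KO list on an autosome that overlapped a WT peak by 1 bp or more, whose KO summit lay within 1 kb of such a start and more than 2 kb from every protein-coding start. The members were thus selected on measured values, the peak calls of both lists and the position of the KO summit, so that neither their presence in both lists nor a KO summit within 1 kb of a start is a result. The rule found 545 of the 28978 autosomal KO peaks shared with WT (1.88%), at 541 genes, 408 of the peaks at lincRNA and 137 at antisense genes in the GENCODE M21 annotation.

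The chromatin came from ATAC-seq, in which a transposase cuts and tags open DNA, on HSCs sorted from the bone marrow of adult C57BL/6 mice by the gate that the labels give as LSK, CD150+, CD34- and CD48-, while the study's methods for ATAC-seq name no CD34. All mice carried floxed Med23, which encodes a subunit of the Mediator complex that links transcription factors to RNA polymerase II. WT mice, labelled WT(Med23floxp/flowp), had no cre, and KO mice, labelled KO(Mx1-cre;Med23floxp/flowp), carried the interferon-inducible Mx1-cre transgene, which by the study's methods was switched on with poly(I:C) and acts throughout the blood system rather than in HSCs alone. Whether the WT mice of this experiment also received poly(I:C) is not given in the sources used here. The labels name 2 samples per genotype, but both point to the same peak list, so that 1 WT list was set against 1 KO list and no difference has a replicate check.

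Long noncoding RNAs are transcripts that are not translated, and some act at the place where they are made while others work elsewhere in the nucleus or serve as precursors of microRNAs. Their promoters are often less rich in CpG dinucleotides than those of protein-coding genes, and many are used in few cell types. A number of annotated noncoding starts lie at enhancers, where RNA polymerase II also initiates, and an accessible region at a start does not show by itself that an RNA is made.

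The sequences below are the 201 bases centred on the KO summit, read from the reference genome GRCm38.p6 (mm10) along the strand of the noncoding gene. They were chosen because the results return to these promoters, either as well-known RNAs, as neighbours of blood regulators or for their KO to WT ratio. Capitals mark words that a search found, and a match describes letters, not a bound site. Neat1 (chr19:5845339-5845539, minus strand) shows the TATA word TATAAA, here 31 to 26 bases before the annotated start. Mir155hg (chr16:84703228-84703428, plus strand) shows the AP-1 word TGAGTCA and a TATAAA word, both downstream of the annotated start. Pvt1 (chr15:62037921-62038121, plus strand) shows the cyclic AMP response word TGACGTCA, Kcnq1ot1 (chr7:143296552-143296752, minus strand) 3 copies of the CCAAT word, and Snhg6 (chr1:9944041-9944241, minus strand) 2 copies of the ETS word CCGGAAG.

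Neat1: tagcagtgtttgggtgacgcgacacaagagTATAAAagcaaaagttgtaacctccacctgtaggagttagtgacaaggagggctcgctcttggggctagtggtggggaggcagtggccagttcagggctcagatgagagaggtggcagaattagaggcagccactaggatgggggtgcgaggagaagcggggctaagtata

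Mir155hg: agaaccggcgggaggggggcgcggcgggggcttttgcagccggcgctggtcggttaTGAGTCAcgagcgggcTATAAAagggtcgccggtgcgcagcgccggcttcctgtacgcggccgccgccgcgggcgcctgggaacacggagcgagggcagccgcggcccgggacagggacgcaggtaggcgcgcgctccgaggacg

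Pvt1: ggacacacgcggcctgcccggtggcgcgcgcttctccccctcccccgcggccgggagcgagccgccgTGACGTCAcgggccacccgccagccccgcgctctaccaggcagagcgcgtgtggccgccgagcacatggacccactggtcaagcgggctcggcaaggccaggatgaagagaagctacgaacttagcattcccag

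Kcnq1ot1: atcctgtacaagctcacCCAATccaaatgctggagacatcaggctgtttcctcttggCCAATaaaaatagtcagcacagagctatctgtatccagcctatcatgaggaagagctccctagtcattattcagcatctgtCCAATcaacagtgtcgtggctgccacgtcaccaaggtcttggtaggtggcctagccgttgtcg

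Snhg6: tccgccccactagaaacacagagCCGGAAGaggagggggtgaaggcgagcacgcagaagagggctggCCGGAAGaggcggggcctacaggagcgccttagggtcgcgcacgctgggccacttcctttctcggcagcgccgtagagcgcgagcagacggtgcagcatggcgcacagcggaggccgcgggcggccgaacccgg

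The next 5 windows belong to promoters that lie in or near genes of blood regulators, or at an end of the range of ratios. In Gm27201 (chr9:32508785-32508985, plus strand), antisense to Fli1, and in Gm45479 (chr8:46765089-46765289, minus strand), antisense to Irf2, the capitals mark the PU.1 word GAGGAAGT on either strand and, in Gm45479, the GATA word AGATAA. In Runx2os2 (chr17:44709957-44710157, plus strand) they mark the C/EBP words TTGCATCA and TTGCACAA. In Gm29114 (chr1:69513642-69513842, plus strand), whose gene overlaps Ikzf2 on the other strand, they mark 3 GATA words, AGATAA or TGATAA on either strand. In 1700011C11Rik (chr7:71961001-71961201, plus strand), which had the lowest ratio, they mark the PU.1 word and the RUNX word TGTGGTT, each on the other strand.

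Gm27201: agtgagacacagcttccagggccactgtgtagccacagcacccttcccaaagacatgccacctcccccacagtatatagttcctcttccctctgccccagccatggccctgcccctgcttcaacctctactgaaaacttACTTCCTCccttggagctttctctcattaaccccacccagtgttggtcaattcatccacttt

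Gm45479: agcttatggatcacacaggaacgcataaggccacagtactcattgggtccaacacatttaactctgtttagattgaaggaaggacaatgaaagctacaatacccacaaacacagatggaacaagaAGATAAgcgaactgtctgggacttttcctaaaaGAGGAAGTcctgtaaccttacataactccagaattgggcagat

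Runx2os2: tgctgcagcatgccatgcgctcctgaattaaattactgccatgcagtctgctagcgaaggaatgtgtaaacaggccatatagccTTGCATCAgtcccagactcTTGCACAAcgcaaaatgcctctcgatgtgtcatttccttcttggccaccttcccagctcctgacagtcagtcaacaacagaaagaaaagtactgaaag

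Gm29114: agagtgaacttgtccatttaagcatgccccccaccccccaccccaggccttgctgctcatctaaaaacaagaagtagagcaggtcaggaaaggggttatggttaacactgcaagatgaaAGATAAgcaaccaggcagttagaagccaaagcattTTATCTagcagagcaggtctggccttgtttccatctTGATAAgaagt

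1700011C11Rik: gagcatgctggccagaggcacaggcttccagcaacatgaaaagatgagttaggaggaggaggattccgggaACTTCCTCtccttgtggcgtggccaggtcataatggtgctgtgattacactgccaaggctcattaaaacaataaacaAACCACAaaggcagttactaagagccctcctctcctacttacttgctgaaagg

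The 4 stretches that follow come from promoters with some of the highest pileups and were chosen for display after their values were seen. They are BC002059 (chr17:16951362-16951435, plus strand), Gm5165 (chr17:17234679-17234752, plus strand), Gm6712 (chr17:17294243-17294316, plus strand) and Gm20939 (chr17:94864799-94864872, plus strand), and the capitals mark the longest word that all 4 windows share.

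BC002059: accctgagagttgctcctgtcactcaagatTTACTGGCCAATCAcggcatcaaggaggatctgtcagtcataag

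Gm5165: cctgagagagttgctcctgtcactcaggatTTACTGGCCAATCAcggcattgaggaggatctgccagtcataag

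Gm6712: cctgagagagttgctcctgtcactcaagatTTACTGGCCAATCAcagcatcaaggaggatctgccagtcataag

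Gm20939: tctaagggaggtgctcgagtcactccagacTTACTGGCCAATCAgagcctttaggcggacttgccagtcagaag

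Over the whole series, 37919 peaks were called in WT and 37639 in KO, of which 36849 and 36600 were autosomal. The lists give no read counts, so read totals are unknown. The pileup at a summit, the number of overlapping fragments or reads, was recovered from the deposited fold enrichment and −log10 p, and its median over each list was 18 in WT and 19 in KO. Of 9 stem and progenitor genes, 6 had a promoter peak in both lists (Kit, Mecom, Hlf, Meis1, Gata2 and Cd34), and Ly6a, Slamf1 and Procr had none within 1 kb of a start. Of 9 genes of mature blood cells, 0 had one in both lists, and S100a8 had one in WT only, with a pileup of 11. The promoter of Med23 had a pileup of 64 in WT and 85 in KO, and peak lists cannot tell whether the floxed part of the gene was still there.

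Most annotated noncoding starts had no shared accessible region. Of 4731 lincRNA genes that start more than 2 kb from every coding start, 403 had one (8.52%), and of 1665 such antisense genes, 133 had one (7.99%). Annotation removed far more antisense than lincRNA genes at this step, since 57.2% of antisense but 90.8% of lincRNA genes start more than 2 kb from a coding start. Among shared KO peaks within 1 kb of a noncoding start, a further 857 were within 2 kb of a coding start and were not members. Peaks called in 1 list only were weak. Of 658 KO peaks at such starts, 113 (17.2%) had no WT overlap, with a median pileup of 11. Of 662 WT peaks, 118 (17.8%) had no KO overlap, with a median of 10. For comparison, 28978 of all 36600 autosomal KO peaks were shared with WT, so peaks in 1 list only were not particular to these starts.

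Members lay on all 19 autosomes, from 15 on chromosome 15 to 45 on chromosome 17. They made up 3.28% of the shared peaks of chromosome 17 and 0.986% of those of chromosome 11. The summit lay outside coding, lincRNA and antisense genes in 218 members, in an intron of a noncoding gene in 111 and in an exon of one in 106. In 70 it lay in an intron of a protein-coding gene, and in 20 more in such an intron and a noncoding exon at once. The gene of 151 members overlapped a protein-coding gene on the other strand. The median distance to the nearest coding start was 31902 bp (quartiles 11579 and 77084), and 106 members were more than 100 kb from one. ATAC-seq has no strand, so a region inside another gene cannot be assigned to one of the overlapping transcripts. The annotated transcripts were mostly spliced: 29 members belonged to genes with a single exon, 201 to genes whose longest transcript has 2 exons and 315 to genes with 3 or more.

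The accessible summits were spread more widely around noncoding than around coding starts. The median distance of the KO summit from the start was 229 bp, against 68 bp at the 12300 shared coding promoter peaks, those with a KO summit within 1 kb of a coding start. Within 100 bp of the start were 30.5% of members and 62.0% of coding promoter peaks, and within 250 bp 53.4% and 83.2%. Coding genes have many annotated transcript starts, and with only the start of each coding gene record the coding median was 88 bp and the share within 100 bp 54.3%. The summit was upstream of the start in 291 members and downstream in 254. The WT summits, which the rule did not use, had a median distance of 223 bp and 29.0% within 100 bp. WT and KO summits were within 100 bp of each other in 74.2% of members with a single peak in each list, against 74.6% of all shared regions.

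**Figure D1:**
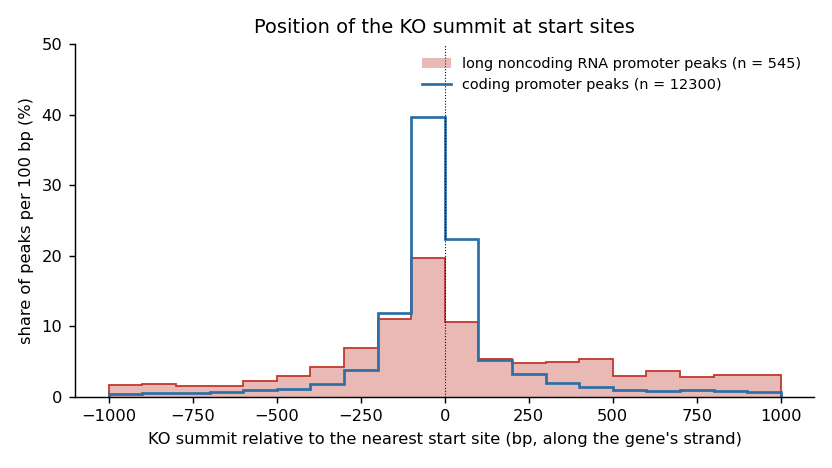
Share of KO summits (%, vertical axis) in steps of 100 bp from the nearest start site (bp along the gene's strand, horizontal axis) at long noncoding RNA promoters (filled) and coding promoters (line). The step just upstream of the start holds 19.6% of the noncoding summits, and the noncoding curve stays above the coding one beyond 200 bp on either side.

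In base composition the members stood between coding promoters and distal peaks, the 14243 shared peaks whose KO summit lies more than 2 kb from every annotated transcript start. The median GC content of the 201-base window was 53.7% in members, 65.2% in coding promoters and 49.3% in distal peaks. The median CpG observed over expected ratio, the number of CpG dinucleotides over that predicted from the counts of C and G, was 0.389, 0.793 and 0.248 in the same order. A window with a GC content of at least 50% and a CpG ratio of at least 0.6 is called CpG-island-like here. By that rule 126 members (23.1%) were CpG-island-like, against 72.4% of coding promoters and 5.41% of distal peaks. Members with a summit within 250 bp of the start were CpG-island-like in 29.2% of cases, and those farther away in 16.1%. Repeat sequence covered more than 50% of the window in 12 members (2.20%).

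**Figure D2:**
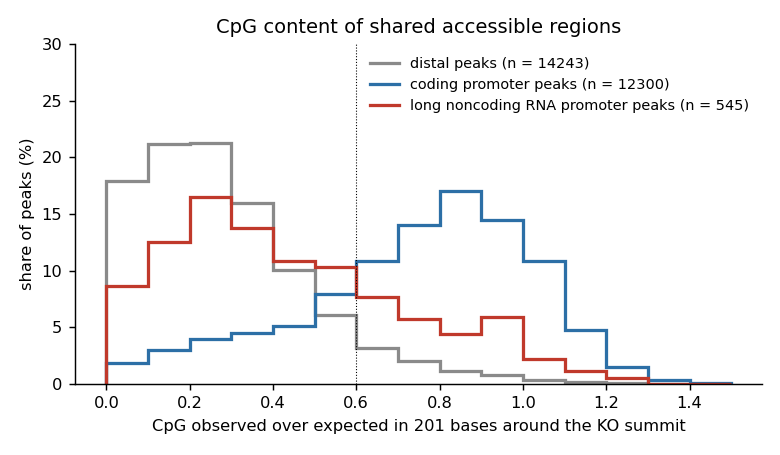
Distribution of the CpG observed over expected ratio (horizontal axis, no unit) in 201 bases around the KO summit, as share of peaks (%, vertical axis), for distal peaks, coding promoters and long noncoding RNA promoters. The dotted line marks 0.6, and the noncoding promoters peak between 0.2 and 0.3 with a long tail to the right, while coding promoters peak between 0.8 and 0.9.

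Individual promoters showed the whole range. The window of Mir155hg, host gene of the microRNA miR-155, had a GC content of 75.1% and a CpG ratio of 1.22 (the sequence is printed above). That of Pvt1, a noncoding gene beside Myc, had 71.6% and 0.937, and that of Snhg6, host of a small nucleolar RNA, 70.1% and 0.951. Kcnq1ot1, the imprinted antisense RNA inside Kcnq1, had a GC content of 49.3% and a CpG ratio of 0.332. The window of Gm27201, in an intron of Fli1, held no CpG at all, and neither did that of Gm29114.

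Accessibility at the members was lower than at coding promoters and higher than at distal peaks. The median pileup was 21 in WT and 22 in KO at members, 32 in both lists at coding promoters, and 17 in WT and 19 in KO at distal peaks. CpG-island-like members had medians of 26 in WT and 28 in KO, and the others had 20 in both. The median width of the KO peak was 715 bp at members, 914 bp at coding promoters and 574 bp at distal peaks. The authors' fold enrichment over local background had a median of 7.01 in WT and 7.76 in KO at members, against 8.06 and 9.47 at coding promoters. Members at lincRNA genes had median pileups of 23 in WT and 22 in KO, and those at antisense genes 19 and 20. A pileup of at least 100 in both lists was reached by 15 members, and 92 were under 15 in both.

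The highest KO pileup was at Gm6410, with 242 in WT and 226 in KO. It was followed by Gm20939 with 150 and 220, Gm31793 with 188 and 199, and Gm26901 with 162 and 190. BC002059 had 148 and 185, Gm6712 had 167 and 184, Gm5165 had 173 and 181, and Gm5444 had 133 and 159. All 8 are at lincRNA genes and lie far from annotated coding starts, from 44666 bp at Gm31793 to 237375 bp at Gm26901. In 6 of them the window was not CpG-island-like.

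Several of these strong promoters were copies of each other. With a family defined by at least 10 shared words of 20 bases, 27 members fell into 11 families. The aligned part of a pair ran from 36 to 201 positions, so some families share only a short stretch. BC002059, Gm5165 and Gm6712 lie on chromosome 17 and were 91.4% to 93.5% identical over the aligned part of their windows, and Gm20939 on chromosome 17 was 94.6% identical to Gm32856 on chromosome 8. The 14-letter word TTACTGGCCAATCA, which contains the CCAAT word and was picked after these values were seen, occurred in 12 of the 28978 shared windows (0.0414%). These were the 5 members just named, 2 coding promoter peaks, at Zfp932 and Gm15446, and 5 distal peaks. The pileup was 96 in WT and 125 in KO at Gm32856, the weakest of the 5 members, against member medians of 21 and 22. The 2 coding promoters had 96 and 123 (Zfp932) and 108 and 168 (Gm15446), and the pileups of the 5 distal peaks are not given here. The word was taken from BC002059, Gm5165, Gm6712 and Gm20939, which were picked among the highest pileups. High pileups at the members that hold it are therefore no result.

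A further family on chromosome 13, of which 2 members were nearest to the zinc finger gene Zfp825, held E430024I08Rik with 60 in WT and 89 in KO, Gm47467 with 84 and 92, and Gm46430 with 70 and 96. On chromosome 12, Gm5784 had 24 and 39, Gm49700 had 69 and 90, and 2410018L13Rik had 15 and 31. Over all 27 members in families, the raw KO pileup was above the WT pileup in 18, equal in 1 and below it in 8, as at Gm26611 with 136 and 100, and it was above in 54.6% of all shared regions. In a count added after these values were seen, the nearest coding gene was a zinc finger gene by its name (Zfp, Zkscan, Zscan or Zik) for 24 members (4.40%), against 1.495% of distal peaks, and for 7 of the 50 members with the highest KO pileup. Copies of each other are among the 24, such as those nearest to Zfp825, and the share over all shared regions is not given here. Of those 50, which had KO pileups of 62 or more, 23 held the CCAAT word, against 123 of all 545. The 50 include BC002059, Gm5165, Gm6712, Gm20939 and Gm32856, whose shared longer word contains CCAAT and was picked for high pileups. Shares at coding promoters or shared regions of equal pileup are not given here. The count therefore does not show that CCAAT goes with high pileup at members in general. Reads from near-identical copies are uncertain in their placement, and how reads with several matches were treated is not given in the sources used here.

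The noncoding type of some members depends on the annotation. The symbol of 299 members matched a gene in RefSeq, where 279 are long noncoding RNAs, 6 are pseudogenes and 14 are protein-coding. The 14 include Gm20939, Gm6712, Gm5165, Gm32856 and Gm46430, hence 3 of the 8 members with the highest KO pileup.

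Motif words of blood transcription factors were searched on both strands of each 201-base window. The GATA words (AGATAA or TGATAA) were in 70 members (12.8%, exact 95% binomial interval 10.2 to 15.9), against 13.2% of all shared windows, 4.79% of coding promoters and 20.2% of distal peaks. The PU.1 word GAGGAAGT was in 50 (9.17%, 6.89 to 11.9), against 6.53%, 2.62% and 9.63%. The AP-1 words (TGACTCA or TGAGTCA) were in 47 (8.62%, 6.41 to 11.3), against 5.93%, 2.38% and 8.73%. The RUNX word TGTGGTT was in 45 (8.26%, 6.09 to 10.9), against 9.19%, 2.95% and 14.3%. For PU.1 and AP-1 the members' interval held the share of distal peaks and lay above those of coding promoters and of all shared windows, while for GATA and RUNX it lay between coding promoters and distal peaks. These intervals cover counting error over regions, which are not replicates.

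The GC box, ETS, YY1, NRF1, CCAAT and cyclic AMP response words were most frequent at coding promoters and least frequent at distal peaks. The GC box GGGCGG was in 138 members (25.3%, 21.7 to 29.2), 57.8% of coding promoters and 9.56% of distal peaks. The ETS word CCGGAAG was in 28 (5.14%, 3.44 to 7.34), against 13.1% and 2.60%, and the YY1 word ATGGCGGC in 4 (0.734%), against 3.63% and 0.197%. The NRF1 word GCATGCGC was in 6 members (1.10%), against 3.26% and 0.463%. CCAAT was in 123 (22.6%, 19.1 to 26.3), against 29.5% and 20.02%. E-box, C/EBP and CTCF words did not follow this order. E-box words (CAGCTG or CAGGTG) were in 159 (29.2%, 25.4 to 33.2), against 21.3% and 25.1%. They were in 23.5% of all shared windows, and the members' interval lay above the shares of all these groups. The C/EBP words (TTGCGCAA, TTGCACAA or TTGCATCA) were in 11 members (2.02%, 1.01 to 3.58), against 0.813% and 1.397%. The cyclic AMP response word TGACGTCA was in 11 as well (2.02%), against 2.56% and 0.477%, and so lay between them. A CTCF consensus was in 23 (4.22%, 2.69 to 6.27), against 1.02% and 3.78%, and its interval, like those of PU.1 and AP-1, held the distal share and lay above that of all shared windows (2.59%). The TATAAA word at 40 to 20 bases before the start was in 6 members (1.10%) and in 83 of 5860 noncoding starts without a member (1.42%).

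Some of these words differed in share between members that were CpG-island-like and the others. The class is set by the GC and CpG content of the same window. A lower share of AT-rich words such as GATA in it is thus partly fixed by that definition. GATA words were in 16.0% of members that were not CpG-island-like and in 2.38% of those that were. The corresponding shares at coding promoters were 10.7% and 2.54%. The PU.1 word was in 10.98% of the members that were not CpG-island-like, against 5.12% of coding promoters of the same kind, and the AP-1 words in 10.3% against 4.68%. The median GC content of these members was 51.2% and that of these coding promoters 55.7%, so the groups were not matched. The shares of CCAAT (22.2% in CpG-island-like members and 22.7% in the others) and of CTCF (4.76% and 4.06%) were close. The GC box was in 62.7% of CpG-island-like members and in 68.6% of CpG-island-like coding promoters. Members with a summit more than 250 bp from the start held the RUNX word in 11.4% of cases and those closer in 5.50%.

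**Figure D3:**
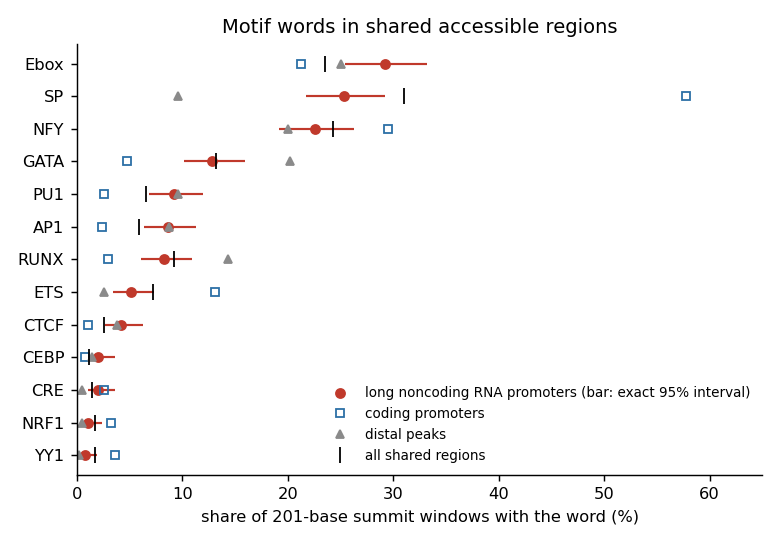
Share of 201-base summit windows (%, horizontal axis) that hold each motif word (vertical axis) at long noncoding RNA promoters (filled circles with exact 95% binomial intervals), coding promoters (squares), distal peaks (triangles) and all shared regions (vertical ticks). GC boxes (SP) were in 57.8% of coding promoters and 25.3% of noncoding ones, and GATA words in 4.79% and 12.8%.

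The comparison of KO with WT asked whether loss of Med23 went with a change of accessibility at these promoters. It used the 527 members with a single peak in each list, and its measure was the log2 ratio of the KO to the WT pileup, each over the genome-wide background of its list. The median log2 ratio was 0.17 at members, 0.17 over all 28119 such shared regions, 0.09 at coding promoters and 0.22 at distal peaks. The SD across regions was 0.43 at members and 0.42 over all regions. Above the median of all shared regions were 264 members (50.1%). The median was 0.16 at lincRNA and 0.19 at antisense genes, and 0.17 for both CpG-island-like and other members.

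Relative to the median of all shared regions, 31 members were at least 1.5-fold higher in KO (5.88%, against 7.56% of all shared regions), and 54 were at least 1.5-fold lower (10.2%, against 7.92%). At coding promoters 3.46% were as much higher and 7.76% as much lower, and at distal peaks 10.9% and 7.88%. More lower than higher regions were thus also found at coding promoters. An exact 95% binomial interval of the 2 pileups lay above that median in 11 members (2.09%, against 1.91%) and below it in 12 (2.28%, against 1.54%). The interval lay above it in 1.36% and below it in 2.24% of coding promoters, and in 2.40% and 1.00% of distal peaks. Both lists chose the regions, so these are descriptions of 2 lists with no test, and in sorted cells measured in bulk a shift in the mix of cells and a change per cell cannot be told apart. Of the 54 lower members, 35 had a summed pileup under 40, where they made up 15.02% of 233 members, against 11.5% of all regions that weak and 14.4% of coding promoters. With a sum of 80 or more the shares were 2.97% of 101 members and 2.27% of all such regions. For higher members the shares were 6.01% against 9.81% in the weak group and 2.97% against 2.89% in the strong one.

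**Figure D4:**
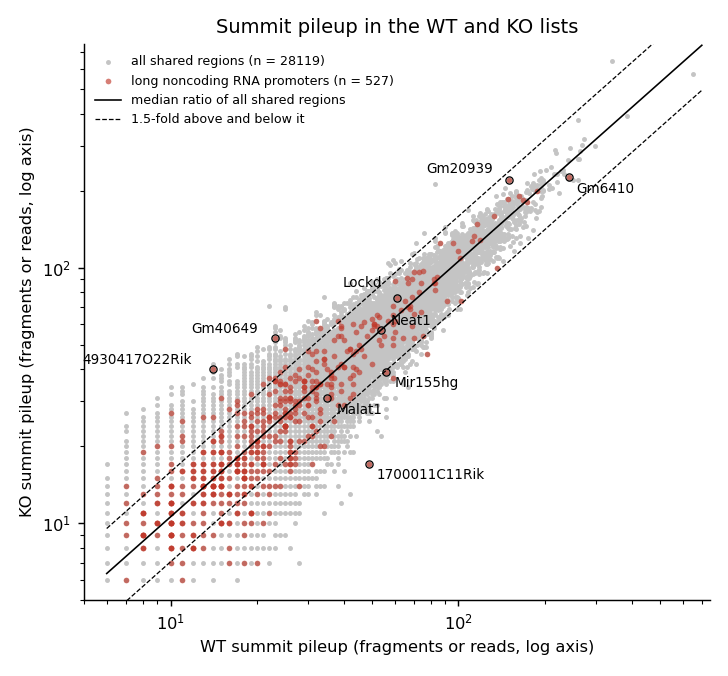
KO summit pileup (vertical, log axis) against WT summit pileup (horizontal, log axis), both in fragments or reads, for 28119 shared regions (grey) and 527 long noncoding RNA promoters (red). The solid line is the median ratio of all shared regions and the dashed lines are 1.5-fold above and below it; 31 noncoding promoters lie on or above the upper line and 54 on or below the lower one.

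Of 37 well-known noncoding RNAs annotated as lincRNA or antisense on the autosomes, 12 had a member. The 37 were not limited to genes that start more than 2 kb from every coding start. Lack of a member among them therefore does not by itself mean lack of an accessible start. Neat1, the RNA that builds paraspeckles in the nucleus, had a pileup of 54 in WT and 57 in KO, in a KO peak at chr19:5845007-5846896. Malat1, an abundant RNA of nuclear speckles, had 35 and 31, with the KO summit 888 bp upstream of its start. Both were near equal in the lists, with log2 ratios of 0.16 and −0.09.

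The hosts of blood microRNAs were both lower in KO by pileup. Mir155hg, whose microRNA acts in activated immune and myeloid cells, had a pileup of 56 in WT against 39 in KO, with a log2 ratio of −0.44 (interval −1.06 to 0.18). Mir142hg, host of a microRNA made across blood cells, had 39 and 33, a log2 ratio of −0.16 (−0.87 to 0.55). Both intervals held the median of all shared regions, so that neither promoter could be told from it at these pileups.

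The imprinted antisense RNAs Kcnq1ot1 and Airn, which silence neighbouring genes on the paternal chromosome, had 32 in both lists and 13 in WT and 14 in KO. The hosts of small nucleolar RNAs had 50 and 57 at Snhg6 and 13 and 14 at Snhg12. Lockd, transcribed downstream of the cell cycle inhibitor gene Cdkn1b, had 61 and 76 (log2 ratio 0.40, −0.10 to 0.91), and Pvt1 had 10 in both lists. Epb41l4aos had 25 and 35. Lncenc1 had 11 and 6, a log2 ratio of −0.79 (−2.51 to 0.77). It was with Mir155hg more than 1.5-fold below the median of all shared regions, while none of the 12 was as far above it. Of all shared regions, 7.92% were at least 1.5-fold below that median and 7.56% at least 1.5-fold above it. With 12 promoters these counts give no direction. The interval held the median of all shared regions in all 12.

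The nearest coding start was that of a listed blood regulator, within 100 kb, for 11 members. Their median log2 ratio was 0.40, with a range from −0.76 to 0.85, against 0.17 for all shared regions, and the interval of each held that median. The raw KO pileup was above the WT pileup in 9 of them, against 54.6% of all shared regions, equal in 1 and below in 1. The neighbours of 8 encode transcription factors. At 58088 bp from the nearest Bcl11a start, Gm12066 had 26 in WT and 37 in KO. In Prdm16, which maintains HSCs, antisense Gm13133 had 10 and 17, a log2 ratio of 0.85 (−0.36 to 2.14). Gm26692, 36016 bp from the nearest Gfi1 start and with a gene that overlaps Rpap2 on the other strand, had 19 and 24. In Fli1, antisense Gm27201 had 39 and 54 (0.56, −0.07 to 1.19), in the window with the PU.1 word printed above. Runx2os2, antisense to Runx2, had 15 and 21. Gm45479, in the interferon regulatory factor gene Irf2, had 20 and 21, and Gm26802 near Fosb, a gene of an AP-1 subunit, had 14 and 15. Pvt1, 50599 bp from the nearest Myc start, had 10 in both lists.

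The others lay near a surface marker gene and genes of the cell cycle. Gm16897, antisense to the stem and progenitor surface marker gene Cd34, had 67 in WT and 70 in KO. Gm36548, 71500 bp from the nearest start of the cell cycle kinase gene Cdk6, had 18 and 10, a log2 ratio of −0.76 (−2.04 to 0.43). Lockd, beside Cdkn1b, had 61 and 76, as given above. Of all 11, Gm13133 was more than 1.5-fold above the median and Gm36548 more than 1.5-fold below it. The shares of all shared regions past these limits were 7.56% and 7.92%, so these calls are nothing particular to the 11.

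The ends of the range were described among the 294 members with a summed pileup of at least 40. The highest ratio was at 4930417O22Rik (chr11:101952721-101953469), an antisense gene in the neighbourhood of Sost, with 14 in WT and 40 in KO and a log2 ratio of 1.60 (0.69 to 2.59). Gm40649 had 23 and 53 (1.29, 0.56 to 2.06), 2410018L13Rik had 15 and 31 (1.13, 0.20 to 2.13) and Gm29114 had 32 and 62 (1.04, 0.40 to 1.70). The Gm29114 gene overlaps Ikzf2, which encodes the transcription factor Helios, on the other strand. The KO summit of Gm29114 lay outside coding genes, 170415 bp from the nearest Ikzf2 start. A930003A15Rik had 25 and 48, and AC157910.4 had 14 and 26. Of these 6, the interval of AC157910.4 held the median of all shared regions, and the other 5 lay above it.

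The lowest ratio was at 1700011C11Rik (chr7:71960809-71961222), with 49 in WT and 17 in KO and a log2 ratio of −1.44 (−2.33 to −0.62). Its KO peak was 414 bp wide and its WT peak 815 bp, with summits 1 bp apart. 4930488L21Rik, inside Gnao1, had 28 and 14 (−0.91, −1.95 to 0.06), AI847159 had 31 and 17 (−0.78, −1.73 to 0.12) and Gm32569 had 34 and 20 (−0.68, −1.55 to 0.16). 2410080I02Rik, 6048 bp from the start of Klf9, a Krüppel-like factor gene, had 78 and 46 (−0.68, −1.23 to −0.13). Gm19590, whose nearest coding start is that of Kdr, had 33 and 20, and its interval alone among these 6 held the median of all shared regions.

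**Figure D5:**
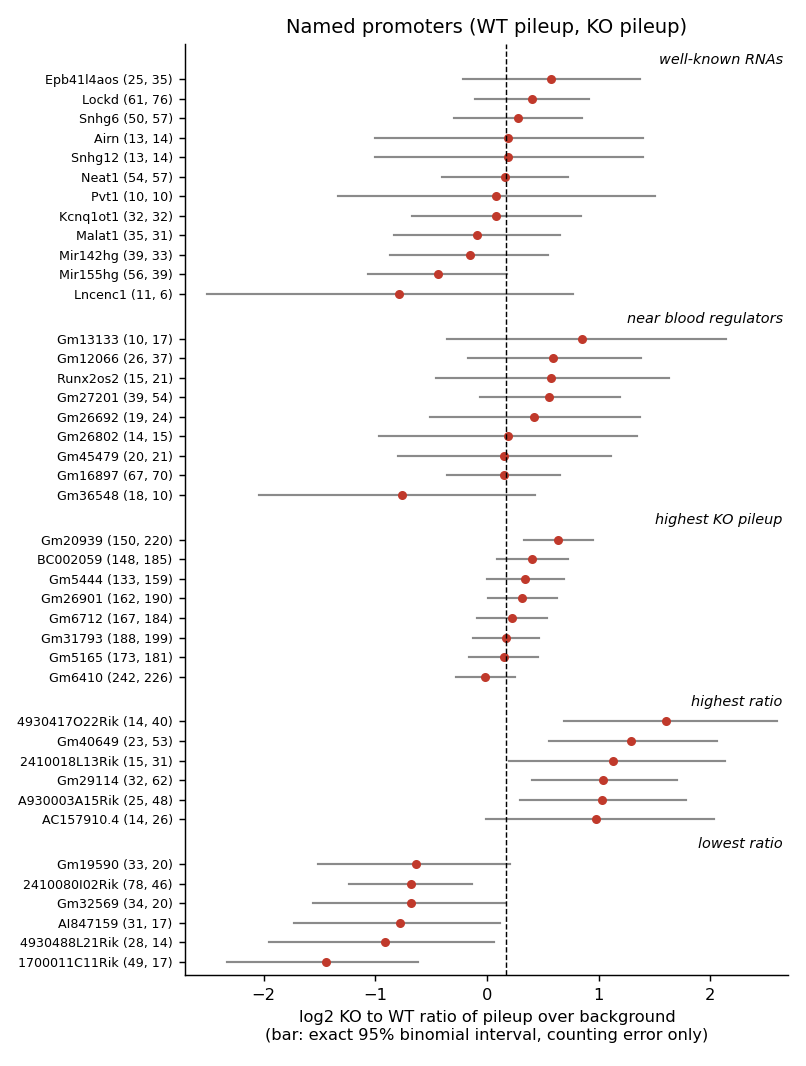
Ratio of KO to WT pileup, each over its background (log2, horizontal axis), with its exact 95% binomial interval for each named promoter (vertical axis), with the WT and KO pileups in parentheses; Lockd and Pvt1, also near blood regulators, appear once. The dashed line is the median of all shared regions (0.17), which every interval of the well-known RNAs and of the promoters near blood regulators crosses.

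Other members whose interval excluded the median, named after their values were seen, lay at both ends of the pileup range. Among weaker ones, 4930503O07Rik had 10 in WT and 27 in KO and Gm15326 had 20 and 7. Among stronger ones, 4632415L05Rik had 86 and 125 (log2 ratio 0.63, 0.22 to 1.04), and Gm15287 had 102 and 74 (−0.38, −0.83 to 0.07). The interval of Gm20939, one of the copies described above, also lay above the median (0.64, 0.33 to 0.95).

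The limits of the rule cut through a continuous range. The members farthest from their start were Gm30726, Gm49768 and 1700110K17Rik, at 998, 997 and 984 bp with KO pileups of 15, 47 and 34. The nearest peaks outside, at Gm40918, Gm44448 and Gm26532, were at 1002, 1003 and 1005 bp with KO pileups of 15, 12 and 33. On the side of the coding starts, the nearest members were Gm43904, Gm47009 and G630030J09Rik, at 2035, 2074 and 2079 bp, and the nearest excluded peaks, at Grip1os3, Gm20402 and Gm26550, were at 1887, 1825 and 1678 bp.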

How the data were processed

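The labels and the study's methods describe ATAC-seq on 5000 sorted HSCs per sample, with reads trimmed by Trim Galore, aligned to mm10 with Bowtie2, freed of duplicates and mitochondrial reads with Picard, and peaks called by MACS2 without a fragment model. Versions, and whether replicates were pooled per list, are not given in the sources used here. The authors deposited, for each peak, a fold enrichment (a ratio to local background), −log10 p and −log10 q values, a summit position and a whole-number display score made from the −log10 q. The score was not used, and the deposited summit lists held the same summits.

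Each summit pileup was solved from the deposited fold and −log10 p under a Poisson model, and a whole number matched within 0.001 for 99.99% of peaks in each list. The solver was tested on simulated data. Ratios are log2 of pileup over the list's background (1.19 in WT and 1.13 in KO, the median over the 1000 lowest local values), in regions with 1 peak of each list and with no pseudocount. Intervals are exact binomial 95% ones and cover counting error only. The noncoding start was the 5′ end of the gene record, and coding starts were all transcript starts of protein-coding genes in GENCODE M21. Windows spanned 100 bp on each side of the KO summit in the RefSeq copy of GRCm38.p6. Python 3.11.15, SciPy 1.17.1, pandas 2.3.3 and pysam 0.24.0 were used.

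Named genes were members on a list of well-known noncoding RNAs, the 8 with the highest KO pileup, the 6 highest and 6 lowest ratios at a summed pileup of at least 40, and members whose nearest coding start within 100 kb was of a listed blood regulator. The members and lists were chosen with earlier results of these data known. No test between conditions was possible with 1 list per genotype. The alternatives tried were other distance limits, start definitions, summits, overlaps, thresholds, scales and windows, and, added after the data were seen, leaving out members in families of shared sequence and genes that RefSeq lists as coding.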

Additional observations from a re-analysis of the deposited data

How the results depend on the processing

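No paired analysis was possible because the replicates of a genotype share 1 peak list, and leaving out a replicate was not run for the same reason. Of 61 recomputed values for the number, ratio, fold counts, GC content and pileup of the members, 48 stayed within their interval or within 1.5 times the main count. Where both peaks had to reach a −log10 q of 10, 282 members were left, with 12 at least 1.5-fold higher, 9 at least 1.5-fold lower, a median GC content of 55.7% and a median KO pileup of 35, since weak regions drop out. The main result had 54 lower and 31 higher members. The limit also removes regions that are weak in 1 list only, and so large differences in both directions. Examples are 1700011C11Rik (−log10 q of 9.73 in KO) and 4930417O22Rik (8.84 in WT). The counts at that limit therefore cannot tell whether the surplus of lower members rests on weak regions. With raw pileups the median log2 ratio was 0.082, the same as for all shared regions. At 2-fold, 6 members were higher and 10 lower. By the binomial interval 11 were higher and 12 lower (2.09% and 2.28%, against 1.91% and 1.54% of all shared regions). For the 2-fold and −log10 q limits, the shares of all shared regions are not given here. The median GC content was 54.7% with coding gene-record starts only, 52.4% with 200 bp on each side of the summit and 55.5% with 50 bp. Without the 14 members that RefSeq lists as protein-coding, or without the 27 members in families, an addition chosen after seeing the data, the median ratio was 0.16 and the counts were 30 and 54, and 29 and 54. Motif shares changed with the window in 16 of 26 values. Peaks missed in 1 list do not enter, pileups under 40 in sum give wide intervals, and the spread between mice is unknown.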
